A study of Mus musculus with 1037 samples.

Results

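Cholesterol synthesis and its control were followed through 7 genes in single cells of the mouse hair follicle. The 7 genes were chosen by name: Hmgcs1, Fdft1, Sqle and Dhcr7, which encode enzymes of the pathway, Insig1, which encodes a brake on it, and Srebf2 and Srebf1, which encode its transcription factors. Each of the 7 matched 1 row by its Ensembl identifier, out of 55335 gene rows in the count table.

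The cells came from the skin of wild type mice and carry the label of hair follicle epithelial cells, with the cells of 3 to 6 animals pooled before sorting. The outer root sheath is the epithelial sleeve around the hair shaft, which is continuous with the stem cells of the follicle. Anagen is the growth phase of the follicle and catagen is the phase in which its lower part regresses. LOS cells were labelled lower outer root sheath at stage AnaVI, with 39 cells, and MOS and UOS cells shared the label upper-middle outer root sheath at AnaVI, with 38 cells in MOS and 24.2% of all cells kept in UOS. The P17f plates held upper outer root sheath at CatVI: pl1 and pl2 were titled PhagoHFSC alive, with 19 and 9 cells, pl5 was titled PhagoHFSC apop, with 15 cells, and pl6 was titled NonPhagoHFSC apop, with 14 cells. OSalive and OSapop held upper outer root sheath at CatVII, with 27% of the cells kept in OSalive and 92 cells in OSapop. A cell was kept if it had 2000 detected genes or more, which left 463 cells. The study used annexin V and DAPI to tell dying cells from living ones, and removed cells with blood, endothelial, pigment or fibroblast surface markers in the sort. Plates pl3 and pl4, titled NonPhagoHFSC alive, had no cell that reached 2000 detected genes.

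No animal is named for any cell, so each sort or plate counts as 1 sample. Stage, sort and plate cannot be told apart from the groups. Most wells occur 2 times in the titles of OSalive and of OSapop, under 2 runs of numbers, and the order of wells and numbers places all but 15 of these cells in 1 of 2 number sets. What a set is (a plate, a day or an animal) is not given, so the sets were used only to see how far values differ within OSalive and OSapop. Wells also recur in UOS, where the numbers do not part the cells in 1 way. The number sets and the pair of plates pl1 and pl2 were the only repeats of a group. Intervals are 95% intervals for counting error only and leave out differences between animals. The reads carry no molecular identifiers, so the reads of 1 cell are not independent molecules. Levels are given as CPM, counts per 1000000 counts in annotated genes, summed over the cells of a sort, and those sums ran from 441410 in pl6 to 55537430 in OSalive. Precision was therefore lowest in the 4 P17f plates. In these summed data, fewer expressing cells and less RNA per cell give the same lower level.

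The labelled cell type was checked against 8 epithelial markers (Krt14, Krt5, Krt15, Itga6, Cd34, Sox9, Lhx2 and Epcam). All 8 were detected in each of the 9 sorts and plates, and their summed level ran from 3581 CPM in pl2 and 4206 CPM in LOS to 23754 CPM in pl5. Fibroblast, melanocyte and endothelial markers were highest in LOS, where 6 fibroblast markers summed to 5572 CPM against 1411 CPM in UOS, 5 melanocyte markers to 682 CPM against 37.2 CPM and 4 endothelial markers to 348 CPM against 36.8 CPM, and none of these markers was at 0 in LOS. Suprabasal markers, of the differentiating layers, were highest in pl5, at 577.9 CPM, and were at 409.5 CPM in UOS and 247.2 CPM in LOS. LOS also had the highest level of 6 proliferation genes, at 1019 CPM against 173.1 CPM in UOS. Sebaceous markers summed to 66.3 CPM or less outside pl2, where they reached 823 CPM, of which Krt79 made up 810 CPM. Cd34, a surface marker of the sort, was at 5.7 to 33.8 CPM in the P17f plates and at 98.4 CPM or more elsewhere.

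Cells make cholesterol from acetyl-CoA in a long chain of enzyme steps, and take it up in lipoproteins through receptors at the cell surface. When sterols in the endoplasmic reticulum run low, SCAP carries SREBP to the Golgi, where it is cut, and the freed fragment enters the nucleus and turns on genes of synthesis and uptake. When sterols are plentiful, INSIG proteins hold SCAP and SREBP back. Skin uses cholesterol in its barrier and in the sebum of the sebaceous gland.

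HMGCS1 joins acetyl units into HMG-CoA at the head of the pathway. FDFT1 (squalene synthase) makes squalene, SQLE (squalene epoxidase) oxidises it, and DHCR7 performs a last reduction to cholesterol. On GRCm39, the build of the files, Hmgcs1 lies on the plus strand of chromosome 13 (120151915 to 120170470), Sqle and Srebf2 on the plus strand of chromosome 15 (59186869 to 59203043 and 82031382 to 82093201), Dhcr7 on the plus strand of chromosome 7 (143376740 to 143402149) and Insig1 on the plus strand of chromosome 5 (28276315 to 28283668). Fdft1 and Srebf1 lie on the minus strand of chromosomes 14 (63382189 to 63417027) and 11 (60089913 to 60113407). In the GENCODE M39 annotation, 6 of the 7 overlap at least 1 other gene, and only Dhcr7 overlaps none. On the opposite strand, Fdft1 overlaps the protein-coding gene Ctsb, Srebf1 overlaps Rai1, Hmgcs1 overlaps Nim1k, Sqle overlaps Washc5 and Srebf2 overlaps Shisa8, and Insig1 overlaps a noncoding gene. Where exons are shared and strand was not kept, the counts of these genes are uncertain.

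The 250 bases before the transcription start are shown for Hmgcs1 and Insig1, which were higher in LOS than in UOS, for Dhcr7, which was not, and for the factor gene Srebf2. The sequences are from RefSeq on GRCm38.p6, where 5 of the 7 genes had an entry (all but Sqle and Fdft1). Capitals mark matches to TCACNCCAC, a form of the sterol response element, and to CCAAT, the letters of the CCAAT box, on either strand. They run 5′ to 3′ on the strand of the gene. Hmgcs1 is chr13:119690101-119690350, Insig1 chr5:28071162-28071411, Dhcr7 chr7:143829964-143830213 (the third of 3 starts) and Srebf2 chr15:82147019-82147268, all on the plus strand.
Hmgcs1 promoter: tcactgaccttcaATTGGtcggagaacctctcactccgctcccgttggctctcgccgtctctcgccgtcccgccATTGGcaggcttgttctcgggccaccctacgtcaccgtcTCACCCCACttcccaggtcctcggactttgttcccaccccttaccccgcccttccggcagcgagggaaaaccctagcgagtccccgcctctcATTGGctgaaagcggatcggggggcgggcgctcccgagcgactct
Insig1 promoter: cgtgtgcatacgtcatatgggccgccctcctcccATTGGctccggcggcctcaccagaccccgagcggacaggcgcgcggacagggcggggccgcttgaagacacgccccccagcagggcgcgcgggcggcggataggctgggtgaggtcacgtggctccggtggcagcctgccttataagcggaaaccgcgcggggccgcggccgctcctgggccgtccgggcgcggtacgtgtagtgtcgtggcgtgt
Dhcr7 promoter: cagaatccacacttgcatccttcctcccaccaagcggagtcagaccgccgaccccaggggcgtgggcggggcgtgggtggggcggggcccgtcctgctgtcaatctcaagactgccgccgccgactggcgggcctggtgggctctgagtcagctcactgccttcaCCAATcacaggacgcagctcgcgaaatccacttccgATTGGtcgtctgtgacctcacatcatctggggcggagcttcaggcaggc
Srebf2 promoter: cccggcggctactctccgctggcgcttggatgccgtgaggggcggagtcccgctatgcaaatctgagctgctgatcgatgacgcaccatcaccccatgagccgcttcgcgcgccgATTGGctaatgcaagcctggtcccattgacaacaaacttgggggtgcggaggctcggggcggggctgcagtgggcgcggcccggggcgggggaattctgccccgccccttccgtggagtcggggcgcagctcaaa
The letters TCACNCCAC occurred 1 time in the Hmgcs1 window, on the strand of the gene. They occurred in none of the windows of the other 4 genes with an entry, counting 3 starts each for Dhcr7 and Srebf1, and in 1.05% of all 32841 promoter windows of the same length. CCAAT occurred 3 times in Hmgcs1, 2 times in the third Dhcr7 window and 1 time each in Insig1 and Srebf2, against 33.9% of all windows with at least 1 match. GGGCGG, the letters of the GC box, occurred 2, 3, 3 and 4 times in the Hmgcs1, Dhcr7, Insig1 and Srebf2 windows, against 32.7% of all windows. The third Dhcr7 window was shown because it holds CCAAT, and the other windows of this gene had no CCAAT and 1 and 0 matches to GGGCGG. The 3 motifs did not share bases in these matches. Such matches describe letters and are not evidence of binding.

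**Figure D1:**
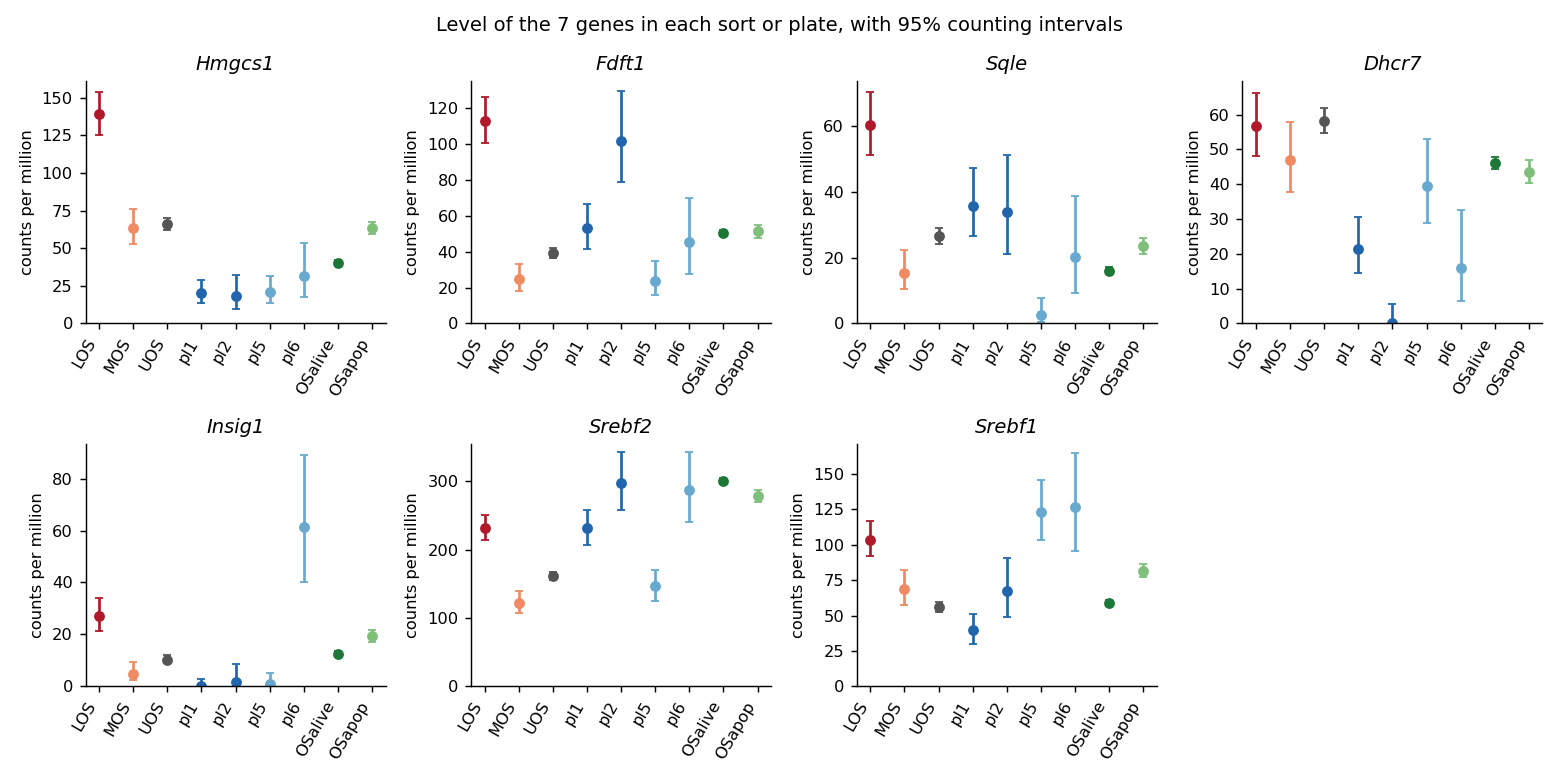
Level of each gene in CPM (vertical axis) in the 9 sorts and plates (horizontal axis), with 95% counting intervals as bars. Hmgcs1, Sqle and Fdft1 peak in LOS, at 139.2, 60.3 and 112.5 CPM, while Srebf2 peaks in OSalive at 301 CPM.

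Hmgcs1, at the head of the pathway, was at 139.2 CPM in LOS, 63.7 CPM in MOS and 65.9 CPM in UOS. It was at 20.1 CPM in pl1, 18.5 CPM in pl2, 21.1 CPM in pl5 and 31.7 CPM in pl6. It was at 40.2 CPM in OSalive and 63.4 CPM in OSapop. LOS was highest, with a counting interval of 125.4 to 153.96 CPM that overlapped no other. The intervals of the 4 CatVI plates overlapped each other at the bottom. Such intervals leave out differences between cells and animals, so they do not by themselves rank the groups. Hmgcs1 was detected in 51.3% of LOS cells, 57.1% of UOS cells and 36.8% of OSalive cells, and 1 cell gave 38.3% of its LOS counts.

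Fdft1, at the branch into sterols, was at 112.5 CPM in LOS, 24.6 CPM in MOS and 39.1 CPM in UOS. It was at 53.01 CPM in pl1, 101.5 CPM in pl2, 23.8 CPM in pl5 and 45.3 CPM in pl6. It was at 50.2 CPM in OSalive and 51.3 CPM in OSapop. LOS and pl2 led with overlapping intervals, but 1 of the 9 pl2 cells gave 90.9% of the Fdft1 counts there. OSalive and OSapop could not be told apart.

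Sqle was at 60.3 CPM in LOS, 15.5 CPM in MOS and 26.5 CPM in UOS. It was at 35.8 CPM in pl1, 33.8 CPM in pl2, 2.64 CPM in pl5 and 20.4 CPM in pl6. It was at 15.97 CPM in OSalive and 23.5 CPM in OSapop. LOS was highest, and its counting interval of 51.4 to 70.3 CPM overlapped none of the other 8, but 1 cell gave 30.1% of the LOS counts. The pl5 value rests on 3 counts in 1 cell, and all 22 counts of pl2 also came from 1 cell.

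Dhcr7 varied least among the 3 anagen sorts, at 56.6 CPM in LOS, 47.1 CPM in MOS and 58.3 CPM in UOS. It was at 21.5 CPM in pl1 and had no count in pl2, which allows a level of up to 4.61 CPM (3 counts in that plate). It was at 39.6 CPM in pl5 and 15.9 CPM in pl6, and at 46.1 CPM in OSalive and 43.5 CPM in OSapop. Each neighbour from UOS down to pl6 in this order had an overlapping interval.

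Insig1, whose protein retains SCAP and SREBP in the endoplasmic reticulum and whose gene is a target of SREBP, was at 27.02 CPM in LOS, 4.81 CPM in MOS and 10.2 CPM in UOS. It had no count in pl1, which allows up to 2.15 CPM, 1 count in pl2 and 1 count in pl5, against 61.2 CPM in pl6 from 27 counts in 3 cells. It was at 12.5 CPM in OSalive and 19.3 CPM in OSapop. The pl6 value was highest, and 1 cell gave 74.1% of it. Insig1 was detected in 21 UOS cells (18.8%), as many as Sqle, and in 13 OSalive cells (10.4%), the fewest of the 7 genes there.

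Srebf2, which encodes the SREBP most tied to cholesterol genes, was at 232.4 CPM in LOS, 122.5 CPM in MOS and 161.05 CPM in UOS. It was at 232.09 CPM in pl1, 298.3 CPM in pl2, 146.2 CPM in pl5 and 287.7 CPM in pl6. It was at 301 CPM in OSalive and 278.4 CPM in OSapop. It was the most widely detected of the 7 genes, in 98.4% of OSalive cells and 83.04% of UOS cells. MOS, pl5 and UOS formed the low end of the order, with neighbouring intervals overlapping.

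Srebf1, which encodes the SREBP most tied to fatty acid genes, was at 103.6 CPM in LOS, 69.01 CPM in MOS and 55.7 CPM in UOS. It was at 39.4 CPM in pl1, 67.7 CPM in pl2, 123.3 CPM in pl5 and 126.9 CPM in pl6. It was at 59.01 CPM in OSalive and 81.7 CPM in OSapop. The 2 CatVI plates titled apop and LOS formed the high end with overlapping intervals.

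Per kilobase of the canonical transcript, which allows genes to be set side by side, Srebf2 had the highest level of the 7 in each of the 9 sorts and plates, from 24.1 CPM per kilobase in MOS to 59.2 CPM per kilobase in OSalive. In UOS the next were Dhcr7 at 19.7, Hmgcs1 at 16.1 and Srebf1 at 12.8 CPM per kilobase. Insig1 was lowest there, at 3.73 CPM per kilobase, and was the lowest of the 7 in each group but pl2 and pl6.

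**Figure D2:**
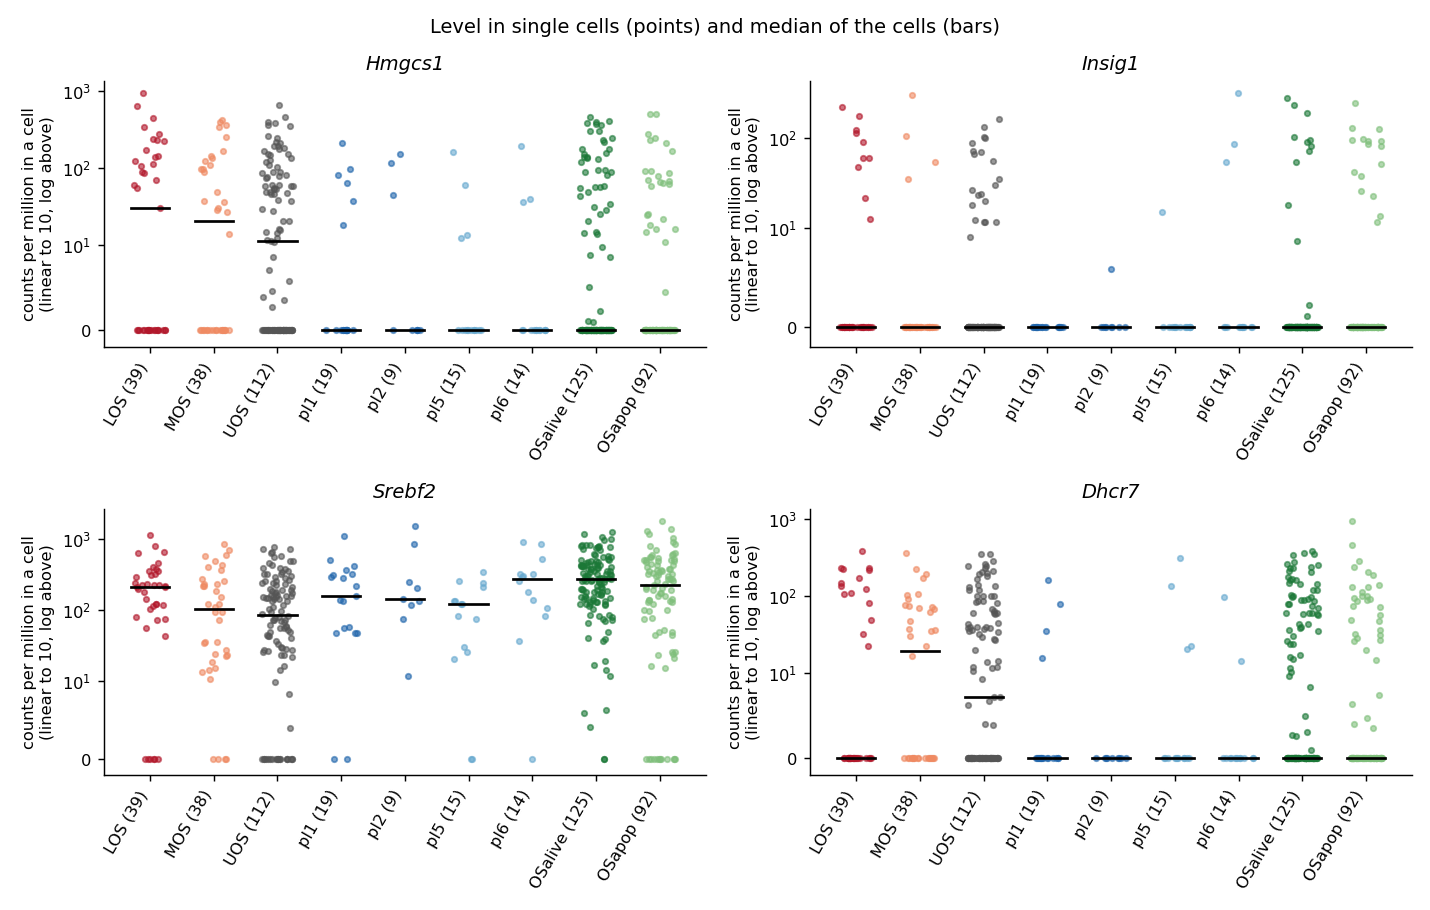
Level of 4 genes in CPM in each cell (points; the vertical axis is linear up to 10 and logarithmic above) by sort or plate, with the median of the cells as a bar and the number of cells in brackets. Most cells have no Insig1 count and its median is 0 in every sort and plate, while the median of Srebf2 is 84.1 CPM or more in all 9.

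The first comparison asked how LOS and UOS, labelled lower and upper-middle outer root sheath, differ in the growing follicle. LOS was higher than UOS for 6 of the 7 genes, and 4 of them passed 2-fold: Fdft1, Insig1, Sqle and Hmgcs1. Of 11418 genes whose counts in the pair of sorts summed to 100 or more, 14% were 2-fold or more higher in LOS, 14.5% lower and 28.4% either. The median log2 ratio of the 7 genes was 1.08, against 0.03 for those genes.
Fdft1 had a log2 ratio of 1.52 (1.32 to 1.72), Insig1 of 1.4 (0.99 to 1.80), Sqle of 1.19 (0.92 to 1.45) and Hmgcs1 of 1.08 (0.91 to 1.25). The factor genes differed by less than 2-fold, with log2 ratios of 0.90 (0.70 to 1.09) for Srebf1 and 0.53 (0.40 to 0.65) for Srebf2. Dhcr7 had a log2 ratio of -0.04 (-0.30 to 0.21), an interval that includes no difference. With each cell thinned to 10000 counts, which leaves 26 LOS cells and all UOS cells, a larger share of LOS cells had a count of each of the 7 genes. For Sqle the shares were 26.9% (11.6% to 47.8%, exact Clopper-Pearson) in LOS and 8.04% (3.74% to 14.7%) in UOS, and for Insig1 they were 23.1% (8.97% to 43.7%) and 8.93% (4.36% to 15.8%). Without thinning, the Sqle shares were 30.8% and 18.8%, while Hmgcs1 was detected in fewer LOS than UOS cells (51.3% and 57.1%), as was Dhcr7 (38.5% and 54.5%). All 7 pairs of thinned intervals overlapped. These intervals take the cells of a sort as independent, but cells are not replicates, so the overlap does not decide a difference between the sorts.

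LOS and UOS also differed in their cycling cells and in cells led by markers of other cell types. Whether such cells account for the difference in the 7 genes was not tested. In LOS 16 of 39 cells had counts of at least 2 of the 6 proliferation genes, against 13 cells in UOS, and 9 LOS cells had more counts of non-epithelial than of epithelial markers, against 4 in UOS. Without the cycling cells 2 of the 7 genes passed 2-fold (Insig1 at 1.57 and Srebf1 at 1.47 on the log2 scale), and the median log2 ratio was 0.53. Fdft1 then had a log2 ratio of 0.08, Hmgcs1 of 0.31 and Sqle of 0.68. Without the cells led by non-epithelial markers 3 genes passed 2-fold (Insig1 at 1.80, Sqle at 1.46 and Srebf1 at 1.35) and the median was 0.98. Insig1 stayed past 2-fold in every setting tried, from 1.29 to 2.55. Leaving out the cell with most counts of each gene on each side brought Hmgcs1 to 0.68 and Fdft1 to 1.05. The counts of that cell were removed but its depth was kept, and the median over all genes was then -0.41.

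Other enzymes of the pathway were also mostly higher in LOS. Of 19 enzyme genes of the pathway, the 4 above among them, 18 had enough counts, 7 were 2-fold or more higher, none was 2-fold or more lower and 15 had a log2 ratio above 0. The 7 were Fdft1, Sqle and Hmgcs1 from above and Mvd, Lbr, Lss and Ebp. Over all genes compared, 14% were 2-fold or more higher and 14.5% lower. These counts include the cycling cells, without which Fdft1 was at 0.08. The median log2 ratio of the enzymes was 0.77. Mvd, which makes the isoprene unit, had the highest value at 2.14 (1.64 to 2.64), from 22.2 CPM in LOS and 5.02 CPM in UOS. Of 8 uptake and transport genes, all 8 were above 0 and 2 were 2-fold or more higher, Lrp8, a lipoprotein receptor, at 1.34 and Npc1, which moves cholesterol out of lysosomes, at 1.23. Soat1, which stores cholesterol as esters, had the highest ratio of the sterol and lipid genes that reached 10 CPM in LOS or UOS, with 216.5 CPM in LOS and 26.9 CPM in UOS (log2 ratio 3.01, 2.83 to 3.19), and 38.97% of the LOS counts were in 1 cell. Apoe, which carries cholesterol out of cells, had the lowest of these, with 1934 CPM in LOS and 13698 CPM in UOS (log2 ratio -2.82, -2.86 to -2.78). Insig2, the second brake, went the other way from Insig1, at 75.5 CPM in LOS and 127.5 CPM in UOS (log2 ratio -0.76, -0.97 to -0.55). Per spike-in count the Insig2 ratio was 0.39, and the median over all genes then was 1.19.

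**Figure D3:**
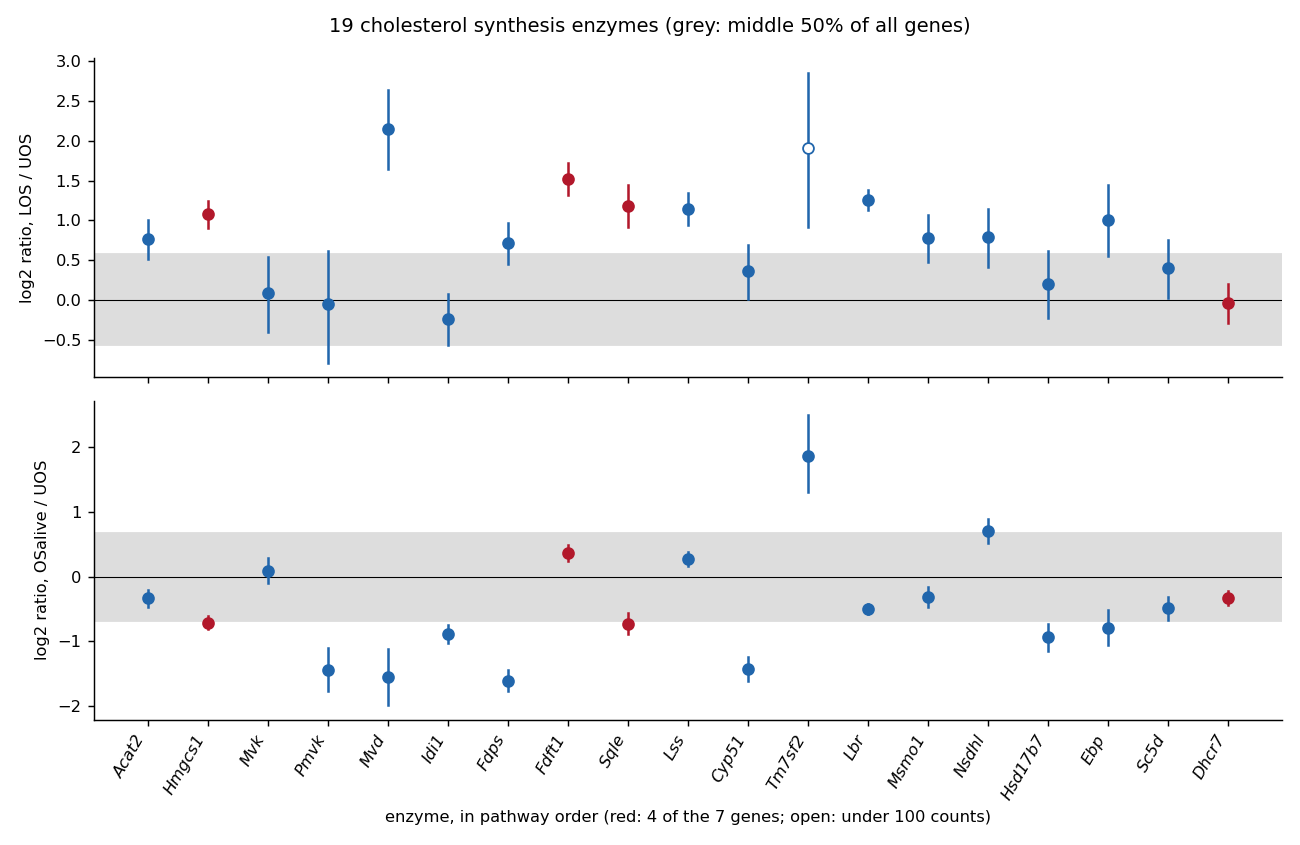
log2 ratio of 19 cholesterol synthesis enzymes in pathway order for LOS over UOS (top) and OSalive over UOS (bottom), with 95% counting intervals; the grey band holds the middle 50% of all genes compared, open points have under 100 counts and red points are the 4 enzymes among the 7 genes. In the top panel 7 of 18 enzymes with enough counts are 2-fold or more higher, against 14% of all genes. These include Fdft1, Sqle and Hmgcs1. In the bottom panel 1 of 19 is higher and 4 are lower, against 16.8% and 18.7% of all genes.

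MOS and UOS, which share a label, differed less in these genes. One of the 7 passed 2-fold, Insig1, which was lower in MOS (log2 ratio -1.09, -2.24 to -0.13) on 9 counts, 66.7% of them in 1 cell, while 18.9% of 11059 genes were 2-fold or more lower, 9.38% higher and 28.3% either. The median log2 ratio of the 7 was -0.39, against -0.11 over all genes. Sqle had a log2 ratio of -0.77 (-1.37 to -0.23), Fdft1 of -0.67 (-1.13 to -0.24), Srebf2 of -0.39 (-0.60 to -0.20) and Srebf1 of 0.31 (0.03 to 0.58). The intervals of Hmgcs1 (-0.05, -0.33 to 0.22) and Dhcr7 (-0.31, -0.64 to 0.01) included no difference. The direction of the median turned when every cell had equal weight, to 0.28, and when cells were thinned to 10000 counts, to 0.22. Of the 19 enzymes, 17 had enough counts, 1 was 2-fold or more higher (Mvk) and 4 lower (Pmvk, Idi1, Cyp51 and Msmo1). Mvk, mevalonate kinase, was at 50.3 CPM in MOS and 15.7 CPM in UOS (log2 ratio 1.68, 1.32 to 2.02), with 54.3% of the MOS counts in 1 cell, and was at 0.30 in thinned cells. Idi1, which makes the second isoprene unit, was at 14.4 CPM in MOS and 41.1 CPM in UOS (-1.51, -2.12 to -0.96), with 81.5% of the MOS counts in 1 cell, and was at 0.24 without proliferating cells. Fads1, a fatty acid desaturase, was at 140.7 and 82.6 CPM (0.77, 0.57 to 0.96). Without the top cells it was at -0.029, where the median over all genes was -0.43. Scd1, also a desaturase, was at 10.7 CPM against 55.9 CPM in UOS (-2.38, -3.10 to -1.75) and at -0.51 in thinned cells.

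The upper sheath in late catagen (OSalive, CatVII) was set against UOS to follow the genes from growth to regression. UOS is labelled upper-middle sheath, so the labels differ in region as well as stage. None of the 7 genes passed 2-fold, against 35.5% of 14078 genes in either direction (16.8% higher and 18.7% lower). Their median log2 ratio was 0.08 and that of all genes was 0.05. Srebf2 was the most changed, at 301 CPM in OSalive and 161.05 CPM in UOS, a log2 ratio of 0.90 (0.84 to 0.96) that stayed between 0.53 and 1.1 in every setting tried. Hmgcs1 (-0.71, -0.82 to -0.61), Sqle (-0.73, -0.90 to -0.56) and Dhcr7 (-0.34, -0.44 to -0.23) were lower, Fdft1 (0.36, 0.24 to 0.48) and Insig1 (0.29, 0.04 to 0.53) higher, and Srebf1 (0.08, -0.02 to 0.19) could not be told apart. Scaled to the counts of all gene rows, Fdft1 was at -0.014 and Insig1 at -0.089, and with every cell given equal weight Sqle was at 0.31 and Dhcr7 at 0.075. Scaled to all gene rows, Hmgcs1 (-1.09) and Sqle (-1.11) were 2-fold or more lower. Srebf2 was 2-fold or more higher per spike-in count, as a mean over cells, in thinned cells and without the top cells, as was Insig1 (1.06) without proliferating cells.
Taken by number set, with 57 and 61 cells, the level of Sqle in OSalive was 8.74 CPM in set 1 and 25.8 CPM in set 2, and that of Insig1 was 7.85 and 18.9 CPM. Against UOS, Sqle then had a log2 ratio of -1.60 (-1.83 to -1.38) in set 1 and -0.040 (-0.22 to 0.14) in set 2, and Insig1 of -0.38 and 0.89. Srebf2 was higher than UOS in both sets (0.94 and 0.78), and Hmgcs1 (-0.87 and -0.55) and Dhcr7 (-0.15 and -0.61) were lower in both.

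Of 19 enzymes 1 was 2-fold or more higher (Tm7sf2 at 1.87) and 4 lower (Fdps at -1.61, Mvd at -1.55, Cyp51 at -1.44 and Pmvk at -1.44), with a median log2 ratio of -0.51, and 5 were above 0. Over all genes compared, 16.8% were 2-fold or more higher and 18.7% lower. Of 8 uptake and transport genes 1 was 2-fold or more higher and 2 lower (Scarb1 and Lrp8), with a median of 0.026. The higher one was Vldlr, a lipoprotein receptor, at 23.5 CPM in OSalive and 8.06 CPM in UOS (1.55, 1.29 to 1.81), and the value stayed between 1.17 and 2.54 in every setting tried. Scarb1, a receptor for HDL, was lower, at 8.46 CPM in OSalive and 39.5 CPM in UOS (-2.22, -2.39 to -2.05), with -0.94 in thinned cells. Insig2 was also lower, at 34.2 CPM in OSalive and 127.5 CPM in UOS (-1.90, -1.99 to -1.81), and stayed between -2.28 and -1.68 in every setting. Abcg1, a sterol exporter, was at 11.3 CPM in OSalive and 5.49 CPM in UOS (1.04, 0.73 to 1.37), with 0.67 by all gene rows and 3.18 in thinned cells.

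**Figure D4:**
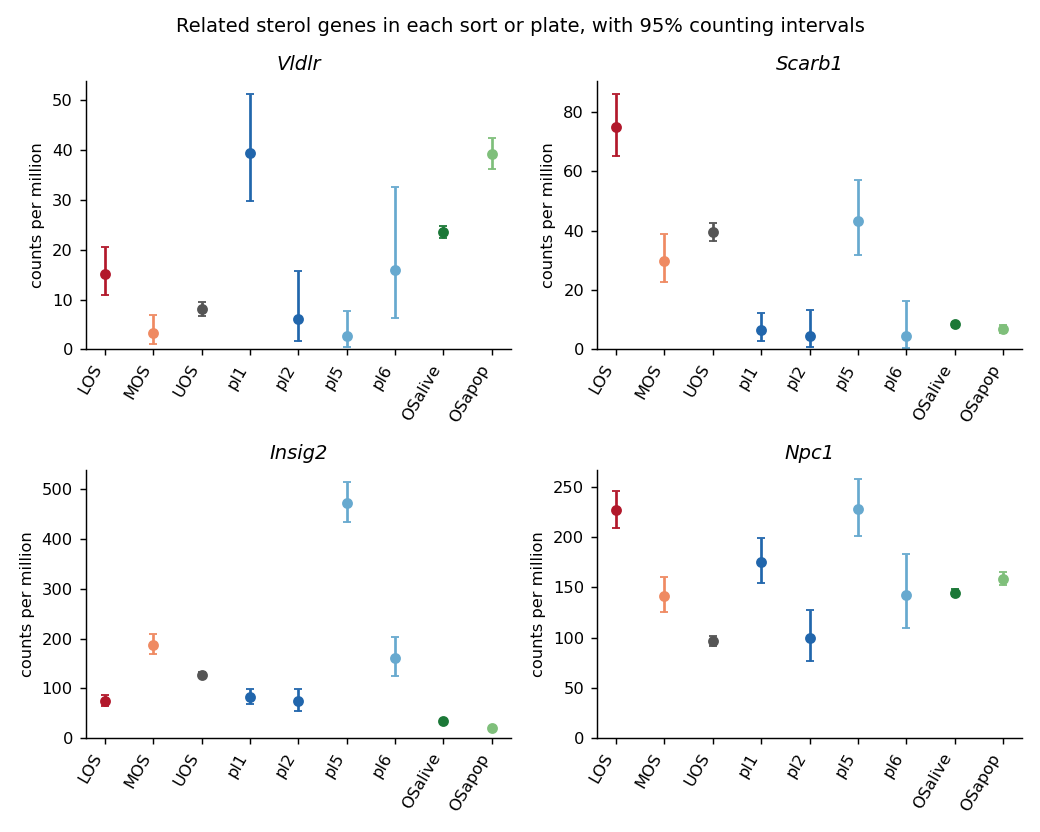
Level in CPM (vertical axis) of Vldlr, Scarb1, Insig2 and Npc1 in the 9 sorts and plates (horizontal axis), with 95% counting intervals. Insig2 is lowest in OSalive and OSapop (34.2 and 19.7 CPM) and highest in pl5 (472 CPM).

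OSapop was compared with OSalive to set dying against living cells of one stage. None of the 7 genes passed 2-fold in either direction, against 21.6% of 13806 genes (8.6% higher and 13% lower). The median log2 ratio was 0.47, with -0.01 over all genes, and 5 of the 7 were above 0. Hmgcs1 (0.66, 0.55 to 0.77), Insig1 (0.63, 0.43 to 0.83), Sqle (0.56, 0.38 to 0.74) and Srebf1 (0.47, 0.37 to 0.56) were higher in OSapop by intervals above 0. Srebf2 was slightly lower (-0.11, -0.16 to -0.06), but was at 0.022 scaled to all gene rows and at 0.33 per spike-in count, where the medians of all genes were 0.13 and 0.43, and the intervals of Fdft1 (0.03, -0.09 to 0.14) and Dhcr7 (-0.09, -0.21 to 0.04) included no difference. The Hmgcs1 difference rests on few cells. It was detected in 26 OSapop cells (28.3%) and 46 OSalive cells (36.8%), and with every cell given equal weight its log2 ratio was -0.55. Srebf1 and Insig1 kept their sign in every setting.
The number sets differed in these ratios. Srebf1 was higher in OSapop within both sets (0.44, 0.30 to 0.58 in set 1 and 0.55, 0.42 to 0.69 in set 2), and Hmgcs1 was too (1.01, 0.86 to 1.17 and 0.29, 0.13 to 0.45). Insig1 had a ratio of 0.18 (-0.24 to 0.59) in set 1 and 0.60 (0.36 to 0.83) in set 2. Sqle was higher in set 1 (1.27, 0.98 to 1.57) and not told apart in set 2 (-0.0081, -0.24 to 0.22). Fdft1 was lower in set 1 (-1.19, -1.45 to -0.94) and higher in set 2 (0.41, 0.27 to 0.54), which the pooled value of 0.03 does not show. Srebf2 was at 0.017 (-0.050 to 0.083) and -0.16 (-0.23 to -0.090), and Dhcr7 at -0.18 and 0.11. The mean of the within-set ratios had a median of 0.39 over the 7 genes.
Of the 19 enzymes 2 were 2-fold or more higher (Cyp51 and Mvd) and none lower. Cyp51, a demethylase of lanosterol, was at 27.9 CPM in OSapop and 9.60 CPM in OSalive (1.54, 1.35 to 1.73), and was higher in both number sets (1.18 and 1.60). Sc5d, a desaturase late in the pathway, was at 28.2 and 15.4 CPM (0.87, 0.70 to 1.04), but at -1.33 in set 1 and 1.68 in set 2. Nsdhl, a sterol dehydrogenase, was at 16.3 and 29.03 CPM (-0.83, -1.03 to -0.64), with -1.79 in set 1 and 0.050 in set 2. Fads2, a fatty acid desaturase, had 4 counts in OSapop and 585 in OSalive (-5.35, -7.23 to -3.99), with the OSalive counts in 11 cells.

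In CatVI, the living PhagoHFSC cells of pl1 and pl2, summed, were compared with UOS. Here too the labels differ in region as well as stage. Of the 7 genes 3 were 2-fold or more lower, Insig1, Dhcr7 and Hmgcs1, while 30% of 11226 genes were 2-fold or more lower, 13.6% higher and 43.6% either. Hmgcs1 had a log2 ratio of -1.75 (-2.25 to -1.30), Dhcr7 of -1.99 (-2.57 to -1.47) and Insig1 of -4.39 (-9.70 to -1.89) on 1 count. Fdft1 (0.81, 0.53 to 1.07), Srebf2 (0.65, 0.51 to 0.79) and Sqle (0.41, 0.03 to 0.77) were higher. For Sqle 1 cell gave 62% of the pl1 counts and 1 cell all of those of pl2. For Fdft1 1 cell gave 90.9% of the pl2 counts. Over the settings tried Fdft1 ran from 0.26 to 2.21 and Sqle from 0.35 to 1.85. Srebf1 had a ratio of -0.20 (-0.52 to 0.10). The median of the 7 was -0.20 and that of all genes -0.29. Hmgcs1 and Dhcr7 were lower in both plates taken alone, at -1.72 and -1.44 in pl1, and in pl2 at -1.84 for Hmgcs1 and -3.66 or lower for Dhcr7, which had no count there. In pl2 4 of 9 cells had more counts of non-epithelial than of epithelial markers. Of the cells of pl1 and pl2, 21.6% and 12.3% were kept, against 83.6% in UOS, and mitochondrial genes held 13% and 32.8% of their counts, against 14.1%. Endothelial markers summed to 222.8 CPM in pl1 against 36.8 CPM in UOS, and melanocyte markers to 456.6 CPM in pl2 against 37.2 CPM. Without the cells led by non-epithelial markers 3 of the 7 genes were 2-fold or more lower and 1 was higher. The median of the 7 was then 0.12 and that of all genes -0.18. The part of the share of cells kept and of mitochondrial counts in these ratios was not tested. Of the 19 enzymes 17 had enough counts, 11 were 2-fold or more lower and none higher, with a median of -1.30. Scarb1 had 12 counts (5.86 CPM against 39.5 CPM in UOS, log2 ratio -2.75, -3.71 to -1.94). Scap, the escort of SREBP, was at 194.5 CPM against 92.96 CPM (1.07, 0.90 to 1.22), and ran from 0.61 without pl1 to 2.46 per spike-in count. Vldlr was at 28.8 against 8.06 CPM, but 1 pl1 cell gave all 55 of the pl1 counts. Without the top cell of each side its log2 ratio was -1.55, where the median over all genes was -0.71.

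Within CatVI, pl5 was compared with pl1 and pl2 and with pl6. In the first, 3 of the 7 genes had at least 100 counts: Srebf1 was 2-fold or more higher in pl5 (log2 ratio 1.35, 0.97 to 1.74), Fdft1 2-fold or more lower (-1.52, -2.18 to -0.92), and Srebf2 lower by less (-0.79, -1.05 to -0.54). Of 5232 genes compared, 11.9% were 2-fold or more higher, 20.6% lower and 32.6% either. Over the settings tried Srebf1 ran from 0.16 to 1.65, Fdft1 from -2.15 to -1.16 and Srebf2 from -1.23 to -0.67. In thinned cells none of these genes was 2-fold or more higher. The other 4 genes had under 100 counts over both sides, among them Sqle with 3 against 72 (-3.73, -6.05 to -2.13) and Dhcr7 with 45 against 30 (1.44, 0.74 to 2.15). Hmgcs1 (0.11, -0.68 to 0.88) was not told apart, and Insig1 had 1 count on each side. Insig2 was at 472 CPM in pl5 against 80.1 CPM (2.56, 2.30 to 2.82) and was detected in 14 of 15 pl5 cells. Scarb1, with 49 against 12 counts, had a ratio of 2.88 (1.95 to 3.93), and Fdps, which makes farnesyl diphosphate, had 1 against 30 counts (-4.06, -9.41 to -1.47).
Against pl6, the dying cells of the other gate, only Srebf2 and Srebf1 had at least 100 counts, and neither passed 2-fold (29% of 2822 genes did in either direction, 20.4% higher and 8.58% lower). Srebf2 was lower in pl5 (-0.98, -1.32 to -0.63) and Srebf1 was not told apart (-0.04, -0.50 to 0.43). Insig1 had 1 count in pl5 and 27 in pl6 (-6.12, -11.47 to -3.52). Sqle had 3 and 9 counts (-2.95, -5.47 to -0.95), Dhcr7 45 and 7 (1.32, 0.16 to 2.72), Fdft1 27 and 20 (-0.93, -1.82 to -0.02) and Hmgcs1 24 and 14 (-0.58, -1.59 to 0.48). The same pl6 cell gave 74.1% to 85.7% of the counts of each of Hmgcs1, Fdft1, Sqle, Dhcr7 and Insig1, and no other pl6 cell had counts of more than 2 of these 5. This leading cell was also the 1 pl6 cell left out as proliferating, and without it the Fdft1 ratio was 1.59. Apoe was higher in pl5 (1.85, 1.78 to 1.92), Scarb1 had 49 against 2 counts (3.25, 1.32 to 6.34) and Fdps 1 against 16 (-5.36, -10.75 to -2.68).

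**Figure D5:**
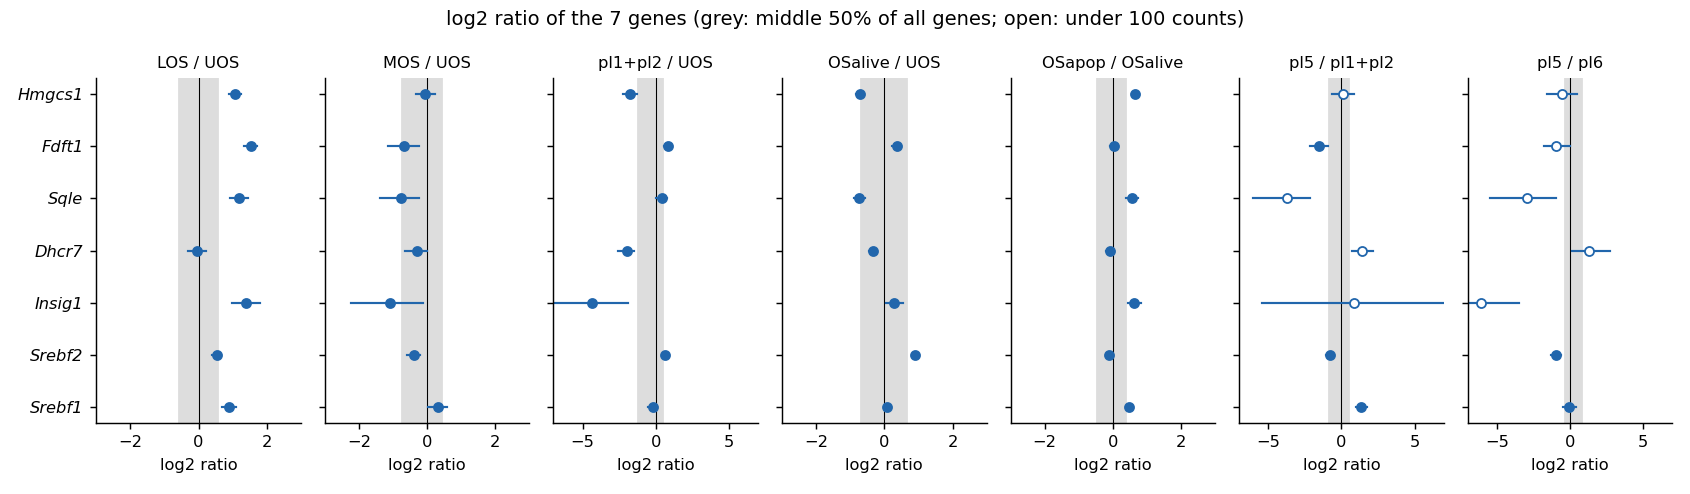
log2 ratio of the 7 genes in each of 7 comparisons (panels), with 95% counting intervals; the grey band holds the middle 50% of all genes compared, open points have under 100 counts, and 3 panels have a wider axis, in which the Insig1 intervals run past the edge. LOS over UOS is the panel with the most genes (4 of 7) above a log2 ratio of 1.

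The enzyme genes and Insig1 were then compared from cell to cell. Of the 5 genes other than the factor genes, all 5 were detected together in 6 LOS cells (15.4%), 9 UOS cells (8.04%), 3 OSalive cells (2.4%) and 3 OSapop cells (3.26%), and none of the 5 in 25.6%, 20.5%, 23.2% and 30.4% of the cells. Over the 10 pairs of these 5 genes, the median Spearman rho across cells was 0.25 in UOS, 0.17 in OSalive and 0.21 in OSapop. With cells thinned to 10000 counts the medians were 0.13, 0.092 and 0.20. Fdft1 and Sqle, neighbours in the pathway, had the highest rho in OSalive (0.34) and OSapop (0.41), and 0.37 in UOS. Sqle and Insig1 had the highest in UOS, 0.44, which was 0.14 in thinned cells. Pairs with Srebf1 or Srebf2 had medians of 0.17, 0.11 and 0.14 in the 3 groups. These points share library and depth, most values are 0, and correlations of this size in sparse counts are given as descriptions only.

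The genes most like the 5 across the OSalive cells, among 4095 genes detected in at least 50% of them, were Fasn, with a mean rho of 0.23, Pygo2, with 0.18, and Hnrnpul1, Bcl11b and Slc12a4, each with 0.18, against a median of 0.020 over those genes. FASN builds fatty acids and is a known target of SREBP. In UOS the 5 most alike were other genes, led by Clcn7 at 0.31 among 4339 genes with a median of 0.056, and in OSapop they were led by Fkbp1a at 0.25 among 3453 genes with a median of 0.023. Fasn was in neither of these, and no gene was in more than 1 of the 3 groups of 5. Fasn was at 327 CPM in OSalive and 201.7 CPM in UOS.

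Of 9 fatty acid genes, 2 were 2-fold or more higher in LOS than in UOS (Scd2 at 1.83 and Fads2 at 1.34) and none lower, with a median log2 ratio of 0.58, where 14% of all genes compared were higher. In OSalive against UOS 2 were 2-fold or more lower and none higher, with a median of -0.57, where 18.7% of all genes compared were lower, and the lower pair was Me1 at -1.14 and Scd1 at -1.04. Of 7 genes of the SREBP control machinery, 2 were 2-fold or more higher in LOS, Insig1 and Mbtps2, which cuts SREBP in the membrane. Of 7 genes of export and storage 4 had enough counts in LOS against UOS, 1 higher (Soat1) and 1 lower (Apoe), and 14% and 14.5% of all genes were. With lists of 7 to 9 genes, such counts are not read as a result about the lists.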

How the data were processed

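Single cells were sorted from mouse skin and sequenced by Smart-seq2, a full-length method without molecular identifiers or strand. The authors aligned reads with STAR 2.6 and quantified them with Salmon 1.4.0 on mm39, and tximport was run in R 3.6.1; the deposited table holds estimated counts per gene and cell. Scanpy is named in the submitters' processing notes without a version. From these, expected counts were rounded to whole numbers, the 92 spike-in (ERCC) rows were set apart, and rows were matched by identifier to GENCODE M39 (51654 of 55335 rows; the unmatched rows held 79.1% of all counts and stayed out of the totals). What the unmatched rows are was not settled. Matched rows held from 19.3% of the counts of kept cells in OSalive to 28.7% in pl2. Of 1037 labelled cells 1036 had a column. A cell entered if 2000 genes or more were detected, and counts were summed by sort or plate, as the titles and stage labels give it.

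Levels are CPM with an exact Poisson interval, and log2 ratios have an exact binomial interval. With 1 sample per group no test was run. Differences past 2-fold were counted among genes with at least 100 counts over both sides. Thinning drew 10000 counts per cell (seed 7). The 7 genes and the other genes' lists were chosen with earlier results of these data known. Besides the 7, the genes named were the 2 highest and 2 lowest ratios per comparison among those lists that reached 10 CPM in 1 of the groups, and the 5 most like genes in OSalive; others were named after their values were seen. Promoter entries were searched for 3 motifs. Computation used scipy 1.17.1 in Python 3.11.15, and was tested on simulated counts. Alternatives were other scalings (all rows, median of ratios, spike-ins), a mean over cells, thinned cells, a minimum of 1000 detected genes, no count minimum, each gene's top cell left out, and plates left out. Leaving out proliferating cells (at least 2 of 6 proliferation genes) or cells led by markers of other cell types was added after seeing the data, as were the number sets of the OSalive and OSapop titles (within a sort the numbers of a set follow the wells, and no number occurs 2 times in a set). The deposited cell metadata were not used. Some genes of these lists were taken out after the lists were fixed and are not reported here.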

Additional observations from a re-analysis of the deposited data

Results flagged for a closer look

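Sqle differed between dying and living cells in opposite directions at the 2 catagen stages. At CatVI the log2 ratio of pl5 over pl1 and pl2 was -3.73, from 3 counts in 1 cell against 72 counts, and at CatVII that of OSapop over OSalive was 0.56, from 364 and 887 counts. Plate pl6, also titled apop, was at 20.4 CPM (9.32 to 38.7), which overlaps pl1 (35.8 CPM, 26.6 to 47.2) and pl2 (33.8 CPM, 21.2 to 51.2), and 1 cell gave 62% of the pl1 counts and 1 cell all 22 counts of pl2. Within the number sets of the CatVII titles the ratio was 1.27 in set 1 and -0.0081 in set 2. The difference between the stages was not tested, since each side is 1 sort or a pair of plates.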

How the results depend on the processing

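OSapop and OSalive were also compared within the number sets of their titles, whose meaning is not given. The mean of the within-set log2 ratios of each gene had a median of 0.39 over the 7 genes. The median over the 7 genes was 0.18 in set 1 and 0.29 in set 2 taken alone, with no test. Each median was taken over genes, so 0.39 is not a mean of the other values. The other comparisons share no set. Of 759 values of single genes under the alternatives, 466 stayed within their counting interval and 35 changed sign. The rest moved outside it in the same direction or had no clear sign. The causes of these moves were not tested. The median log2 ratio of the 7 genes in LOS against UOS was 2.23 per spike-in count, 0.88 as a mean over cells, 1.4 in thinned cells, 0.68 without top cells and 0.53 without proliferating cells. For MOS against UOS it was 0.28 as a mean over cells and 0.22 thinned, both of opposite sign, -0.98 without top cells and -0.13 without proliferating cells. For CatVI alive against UOS it was 1.2 per spike-in count, 0.21 as a mean, 0.24 thinned, 0.12 without cells led by other markers and 0.28 without plate pl1. For OSalive against UOS it was -0.29 by all rows, 0.30 per spike-in count, -0.13 thinned and -0.15 with OSalive number set 1 alone. For OSapop against OSalive it was 0.60 by all rows, 0.91 per spike-in count, -0.065 as a mean over cells, 0.13 thinned, 0.32 without top cells and 0.21 without proliferating cells. For pl5 against pl1 and pl2 it was -0.82 as a mean, -1.48 thinned, -1.22 without top cells, -0.84 without cells led by other markers and -0.80 without plate pl1, and for pl5 against pl6 it was 0.10 without top cells. Scalings shifted all genes alike: per spike-in count the all-gene median was 1.19 in LOS against UOS, 1.15 in CatVI alive against UOS, 0.43 in OSapop against OSalive and 0.27 in OSalive against UOS, and by all rows -0.33 in OSalive against UOS and -0.29 in MOS against UOS. Leaving out top cells removed their counts but kept their depth, and the all-gene median moved. It was then -0.41 in LOS against UOS, -0.43 in MOS against UOS and -0.71 in CatVI alive against UOS. In OSalive against UOS it was 0.059 and in OSapop against OSalive -0.13. In pl5 it was -0.14 against pl1 and pl2 and 0.39 against pl6. Without a count minimum the share past 2-fold in pl5 against pl6 was 46.3%.

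Genes whose counting interval left out 0 and that changed sign were, in LOS against UOS, Insig2 per spike-in count (0.39). In MOS against UOS they were Fdft1 (0.31), Insig1 (0.45) and Srebf2 (0.25) as a mean over cells, Fdft1 (0.47) and Insig1 (0.32) thinned, Srebf1 (-0.42) and Fads1 (-0.029) without top cells (all-gene median -0.43) and Sqle (0.18) and Idi1 (0.24) without proliferating cells. In CatVI alive against UOS the gene was Vldlr, without top cells (-1.55), without proliferating cells (-2.09) and without pl1 (-0.39). In OSalive against UOS they were Fdft1 (-0.014) and Insig1 (-0.089) by all rows, Sqle (0.31) and Dhcr7 (0.075) as a mean, Sqle (0.41) and Insig1 (-0.73) thinned Sqle (0.015) without proliferating cells and Insig1 (-0.38) with set 1 alone. In OSapop against OSalive they were Srebf2 by all rows (0.022) and per spike-in count (0.33) and Hmgcs1 as a mean (-0.55) and thinned (-0.25), and by number set Srebf2 (0.017) and Sc5d (-1.33) in set 1 and Sqle (-0.0081) and Nsdhl (0.050) in set 2. In pl5 against pl1 and pl2 they were Dhcr7 (-0.47) and Fdps (0.43) thinned, and in pl5 against pl6 Dhcr7 (-0.79) thinned, Fdft1 (0.75) and Fdps (0.22) without top cells and Fdft1 (1.59) without proliferating cells.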

Other observations

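Plates pl3 and pl4, titled NonPhagoHFSC alive, held 67 and 57 cells, all below 1000 detected genes, and 3292 annotated counts in all. None of the 7 genes had a count there, which allows a level of up to 911 CPM for each. One cell titled OSapop carries the label of stage CatVI and was placed in no group. It had 2674 detected genes and 10456 annotated counts, with 5 counts of Srebf1 and none of the other 6 genes.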
